A study of Mus musculus with 43 samples.

Results

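The genes described here are 32 mitosis and spindle genes, taken from the 38983 genes that all 5 expression tables share by matching gene symbols to a fixed list. All 32 were found in each table. The study followed mouse embryonic fibroblasts (MEF) as they were turned into induced pluripotent stem cells (iPSC), and asked how this course runs in cells depleted of Mbd3 or Gatad2a, subunits of the NuRD chromatin remodelling and deacetylase complex. Polyadenylated RNA was sequenced in 43 libraries. Of these, 34 follow the daily course in 4 cell systems and 9 test Myc.

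The 2 depleted systems are Mbd3f/-, with 1 floxed and 1 null Mbd3 allele, sampled as MEF, on days 1 to 8, as iPSC and as embryonic stem cells (ES), and Gatad2a-/-, sampled in the same way without ES. The wild-type systems are WT-1, sampled as MEF, on days 2, 4, 6 and 8, as iPSC and as V6.5 ES, and WT-2, isogenic to Gatad2a-/- and sampled like WT-1 without ES. All 4 carry a doxycycline-inducible cassette of Oct4, Klf4, Sox2 and Myc (OKSM). The MEF were secondary, and the course began when doxycycline was added in serum and LIF at 5% oxygen. On day 3.5 the medium became serum replacement with LIF and 2i, inhibitors of MEK/ERK and GSK3. Cells of days 3 to 8, iPSC and ES grew on irradiated human foreskin fibroblasts. The iPSC lines had at least 3 passages. The Myc libraries comprise day 4 of an Mbd3f/- line labelled as overexpressing Oct4, Sox2 and Klf4 with cMyc (OSK plus cMyc), cMyc alone or OSK alone. A secondary Mbd3f/- OSK line gave the others: siRNA against cMyc, nMyc and lMyc (siMyc) on days 3 and 7, a Myc inhibitor on day 3, and the si-Scramble control on day 7 and in 2 MEF libraries. Each stage of each system is 1 library, so systems serve as the replicates. The p-values and SE rest on how the systems of a class differ in their changes between stages. This spread was pooled over all fitted stages and, where WT was fitted too, over both classes. The SE given for a class is therefore not the spread of that class alone, and serial stages of a system count as independent. Counts of genes called in fits without a system, or under other settings, are given without the share of all genes called there.

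To divide, a cell activates Cdk1 with B-type cyclins, condenses its chromosomes, builds a spindle of microtubules and attaches each sister kinetochore to it. The spindle checkpoint holds Cdc20, the activator of the anaphase-promoting complex, until all kinetochores are attached. Anillin, centralspindlin and Prc1 then shape the cleavage furrow. Transcripts of these genes accumulate in G2 and M, largely through the MuvB complex with B-Myb and FoxM1, and pluripotent mouse cells are known for a short cycle with little G1. In bulk RNA a change in the share of dividing cells and a change in RNA per dividing cell cannot be told apart.

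The 32 genes lie on 14 chromosomes and fall into 8 roles. They are the cyclins and Cdk1 (Ccna2, Ccnb1, Ccnb2, Cdk1), the spindle checkpoint with Cdc20 (Cdc20, Bub1, Bub1b, Mad2l1, Ttk), and the kinases Aurka, Plk1 and Melk. The chromosomal passenger complex is present with Aurkb, Birc5, Incenp and Cdca8, and the kinetochore with Cenpa, Cenpe, Cenpf, Ndc80, Nuf2 and Spc25. Spindle motors and microtubule factors are Kif11, Kif2c, Tpx2 and Nusap1. The central spindle and cytokinesis genes are Kif20a, Kif23, Prc1, Anln and Ect2, and Top2a, the topoisomerase that untangles sister chromatids, stands alone.

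RefSeq promoter windows (GRCm38.p6, 250 bases before to 50 after the annotated start) were matched by symbol for 27 of the 32 genes. Kif20a, Aurkb, Tpx2, Incenp and Ccna2 had no window. Windows were searched on both strands for the letters of the cell cycle genes homology region (CHR, written TTTGAA and TTCGAA with their reverse TTCAAA), the element that MuvB recognises, and of the NF-Y box (CCAAT or ATTGG). The 120 bases just upstream of the start are printed below, on the gene's own strand, for the mitotic kinase Cdk1, the checkpoint target, the topoisomerase and a motor, and for a gene with 3 NF-Y boxes and a gene with neither motif. Capitals mark CHR and NF-Y letters. The stretches are Cdk1 at chr10:69352913-69353032 (minus strand), Cdc20 at chr4:118437344-118437463 (minus strand), Top2a at chr11:99024190-99024309 (minus strand), Kif11 at chr19:37376262-37376381 (plus strand), Ccnb2 at chr9:70421555-70421674 (minus strand) and Mad2l1 at chr6:66535101-66535220 (plus strand).
Cdk1: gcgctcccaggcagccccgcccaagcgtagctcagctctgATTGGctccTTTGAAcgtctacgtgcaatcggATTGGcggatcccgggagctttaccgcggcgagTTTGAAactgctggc
Cdc20: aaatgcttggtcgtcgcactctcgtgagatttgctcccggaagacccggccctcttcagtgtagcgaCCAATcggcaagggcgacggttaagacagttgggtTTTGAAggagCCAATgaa
Top2a: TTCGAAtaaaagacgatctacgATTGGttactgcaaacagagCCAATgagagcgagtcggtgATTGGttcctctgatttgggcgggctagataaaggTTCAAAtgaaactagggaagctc
Kif11: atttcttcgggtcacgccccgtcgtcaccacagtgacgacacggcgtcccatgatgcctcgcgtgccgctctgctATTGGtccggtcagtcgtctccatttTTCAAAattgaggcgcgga
Ccnb2: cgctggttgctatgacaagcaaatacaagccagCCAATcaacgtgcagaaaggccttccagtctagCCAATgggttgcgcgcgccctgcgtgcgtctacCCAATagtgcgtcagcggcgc
Mad2l1: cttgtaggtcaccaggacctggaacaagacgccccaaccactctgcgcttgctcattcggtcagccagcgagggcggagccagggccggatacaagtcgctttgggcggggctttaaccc

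Cdk1, Cdc20, Top2a and Kif11 carry both kinds of letters within these stretches. Ccnb2 has its CHR letters elsewhere in the window, and Mad2l1 has neither motif in its window. The GENCODE annotation starts Mad2l1 at chr6:66535390, downstream of this window, and the bases around that start were not searched. Prc1 and Ect2 have 2 overlapping windows each, so 29 windows were searched, their shared sites are listed from both starts, and a gene counts once. CHR letters were found for 20 of the 27 genes (74.1%), against 21.7% of the 27025 genes with a window. NF-Y letters were found in 19 (70.4%), against 41.1% of all genes, and both together in 17 (63.0%), against 8.61% of all genes. At least 2 NF-Y boxes occurred for 13 genes (48.1%), against 13.3% of all genes. TATAAA occurred for 1 gene, Kif2c (3.70%), against 15.7% of all genes. The CHR match nearest the start lay at or after it for 14 of 20 genes, and the nearest NF-Y match lay within 100 bases before it for 17 of 19. Mad2l1, Melk, Birc5, Nuf2 and Nusap1 held neither. A match is a run of letters and not a shown binding site.

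**Figure D1:**
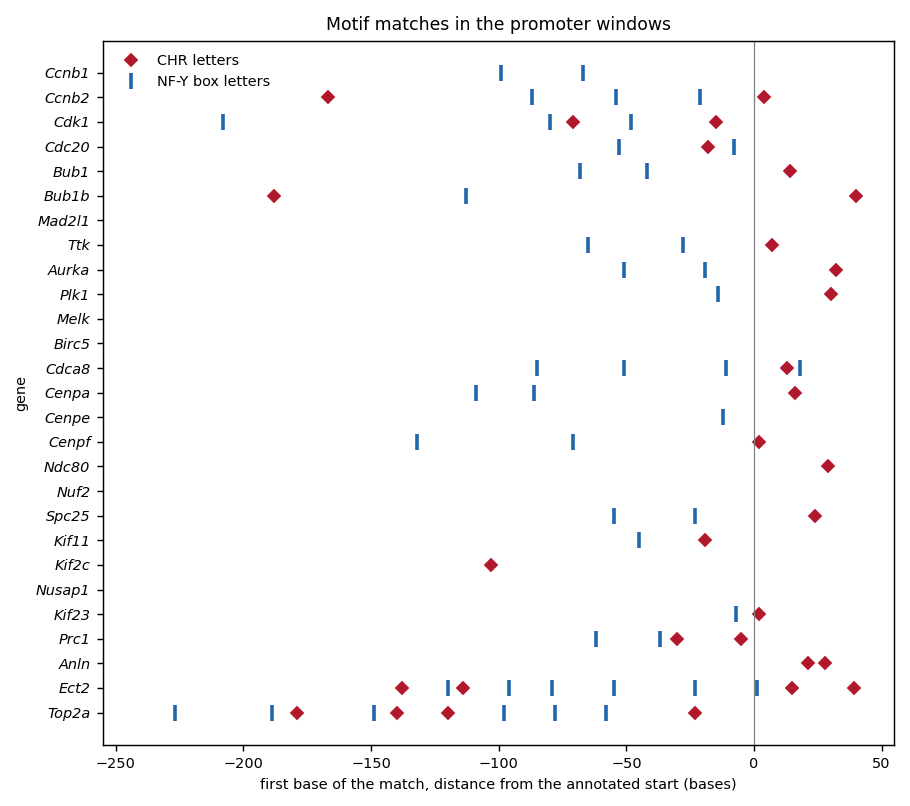
CHR letters (red diamonds) and NF-Y box letters (blue bars) in the promoter windows of 27 genes, by distance in bases of the first base of the match from the annotated start at 0. NF-Y letters gather within 100 bases before the start and CHR letters around or just after it, and the rows of Mad2l1, Melk, Birc5, Nuf2 and Nusap1 are empty. Sites of Prc1 and Ect2 appear once for each of their 2 starts.

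Expression was deposited as FPKM, fragments scaled to transcript length and to mapped fragments, so levels compare between genes per length. Depth is unknown. FPKM totals were 1494230 to 10044700 in the Gatad2a-/- libraries, where the 20 highest genes held 54.5% to 92.2%, against 573675 to 917427 and 8.89% to 24.8% in the other course libraries, and the tables were normalized separately, so changes are compared within a system and levels set across systems are approximate. No member was listed at 0 in any library. The WT-2 libraries stood apart from MEF to day 8. Their summed FPKM of 7 macrophage and blood markers was 522 to 1239, against 9.21 to 363 in Mbd3f/-, 7.46 to 79.1 in Gatad2a-/- and 5.02 to 10.2 in WT-1, with the haemoglobin genes Hbb-bs and Hba-a1 at 0. Their Sox2 was 0.162 to 0.429 FPKM through day 8, against 6.93 in WT-1, 83.2 in Gatad2a-/- and 8.54 in Mbd3f/- on day 4. Their Pou5f1, the Oct4 gene, was 0 to 0.832 FPKM through day 8, against 79.1, 139 and 304 on day 4 in the same order. Klf4 was 14.8 on day 4 of WT-2, against 8.58 in its MEF. Expression of the cassette itself was not tested. A pair of cross-system resemblances went against the labels: over 13405 genes the Mbd3f/- ES library correlated with the WT-1 iPSC library at 0.959 and the Mbd3f/- iPSC library with WT-1 ES at 0.948, above 0.924 for iPSC and ES of Mbd3f/- and 0.926 for those of WT-1. Mbd3 stood at 37.5 FPKM in Mbd3f/- MEF, between 55.8 and 96.5 during days 1 to 8, and at 43.1 (iPSC) and 36.3 (ES). The WT-1 values were 79.4 for MEF, between 75.3 and 117 for days 2 to 8, 101 for iPSC and 99.3 for ES. In WT-2 Mbd3 was 52.98 in MEF, between 68.2 and 76.6 for days 2 to 8, and 135 in iPSC. The Mbd3f/- range of days 1 to 8 thus overlapped the day ranges of both WT systems. The Mbd3f/- MEF and iPSC values lay below those of both. Gatad2a was 8.59 to 14.7 FPKM from MEF to day 8 of Gatad2a-/-, against 9.17 to 11.5 in WT-2, and 13.4 in Gatad2a-/- iPSC, against 38.5 in WT-2 iPSC. No source used here gives the deleted exons, so these gene totals are no full check of the genotypes.

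The starting levels were unlike. Their median in MEF was 22.5 FPKM in Mbd3f/-, 15.7 in Gatad2a-/-, 12.2 in WT-1 and 2.60 in WT-2. The median in iPSC was 56.9 FPKM in Mbd3f/-, 59.2 in Gatad2a-/-, 51.4 in WT-1 and 54.9 in WT-2. The iPSC medians thus lay close together while the WT-2 MEF median lay far below the other MEF medians. Single genes could differ more in iPSC. In the same order, Ccnb1 was 61.3, 274, 90.1 and 72.7 FPKM and Cdc20 97.8, 39.5, 167 and 113.

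Between MEF and iPSC, 31 of the 32 genes rose over the 4 systems (limma on log2(FPKM + 1), Benjamini-Hochberg adjusted p under 0.05; 29% of all genes tested were called higher). The median change of the 32 was 2.28 on the log2 scale, against 0.14 over all genes. Top2a rose most, by 3.11 ± 0.44 (SE, n = 4 systems, adjusted p = 6.71e-05). Ccnb1, the mitotic cyclin, rose by 3.08 ± 0.39 (adjusted p = 2.36e-05). Birc5, which encodes the passenger protein survivin, rose by 2.96 ± 0.44 (adjusted p = 9.91e-05). Aurka rose by 2.75, Cdc20 by 2.68, Cenpa by 2.62, Cdk1 by 2.03, Tpx2 by 1.79 and Prc1 by 1.71. The smallest changes were those of Anln, the furrow scaffold anillin, at 1.00 ± 0.40 (adjusted p = 0.0509, not called), the kinetochore motor Cenpe at 1.27 ± 0.33 and the kinetochore subunit Nuf2 at 1.32 ± 0.35. By role, with Top2a alone in its own, the median change of the others ran from 1.93 in the kinetochore genes, all 6 of which rose, to 2.62 in the checkpoint genes, all 5 of which rose. Of the 5 cytokinesis genes 4 rose, with a median of 2.11.

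The ratio of the end points was unlike between systems. The FPKM ratio of iPSC to MEF ranged from 1.37 for Nuf2 to 3.90 for the checkpoint kinase Ttk in Mbd3f/-, and from 1.66 for Nuf2 to 6.71 for the checkpoint kinase Bub1 in Gatad2a-/-. It ranged from 0.799 for Anln to 9.39 for Ccnb1 in WT-1, and from 9.06 for Incenp to 69.4 for Top2a in WT-2. WT-2 therefore had the largest ratios, over the lowest MEF levels. Without WT-2 the median change was 1.85 with 30 genes called, and without any other system 26 to 32 were called.

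**Figure D2:**
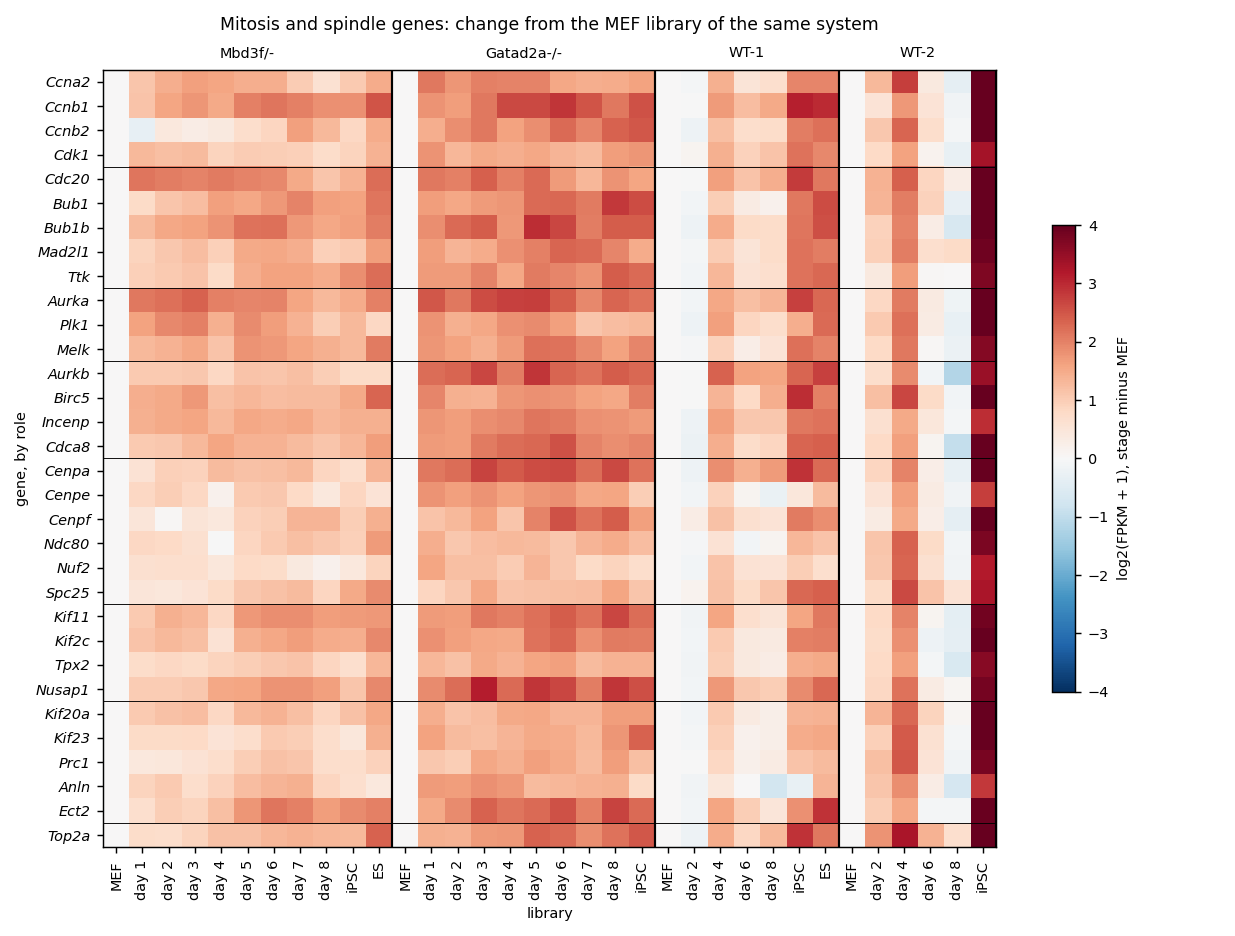
Change in log2(FPKM + 1) of each of the 32 genes (rows, grouped by role) from the MEF library of the same system, for every course library (columns), with red above MEF and blue below. The depleted systems are red from day 1 onward, apart from Ccnb2 on day 1 and Ndc80 on day 4 of Mbd3f/-, WT-1 and WT-2 pale again after day 4, and WT-2 iPSC is darkest.

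In the depleted systems the mitotic genes were already high 1 day after doxycycline. On day 1, 29 of the 32 had risen over MEF, with a median change of 1.33, while 14.1% of all genes were called higher (limma over the 20 libraries of the depleted systems). Aurka, the centrosomal kinase that drives spindle assembly, rose by 2.30 ± 0.25 (SE, n = 2 systems, adjusted p = 0.000156). Cdc20 rose by 2.12 ± 0.21 (adjusted p = 0.000104) and Birc5 by 1.71 ± 0.23 (adjusted p = 0.000422). Ccnb2 at 0.55 ± 0.39 (adjusted p = 0.375), Spc25 at 0.68 ± 0.29 (adjusted p = 0.116) and Cenpf at 0.81 ± 0.29 (adjusted p = 0.0667) were not called. Over days 1 to 3 together all 32 rose, by a median of 1.41, with 19.6% of all genes called higher.

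Aurka shows the early rise. Aurka stood at 27.4 FPKM in the Mbd3f/- MEF library, days 1 to 8 held 121, 130.4, 144, 113, 108, 111, 83.7 and 69.0, and iPSC held 77.9, with ES at 113. Aurka of Gatad2a-/- MEF was at 14.4 FPKM, days 1 to 8 held 85.5, 65.3, 92.2, 100.3, 104, 81.3, 57.1 and 76.4, and iPSC held 67.6. In both systems every later library lay above the MEF library, and Aurka was highest on day 3 of Mbd3f/- and day 5 of Gatad2a-/-. Aurka in WT-1 began at 15.4 FPKM as MEF, passed through 14.2, 47.5, 37.1 and 41.2 over days 2, 4, 6 and 8, and ended as iPSC at 109, beside ES at 80.0. For WT-2 the Aurka MEF value was 2.58 FPKM, those of days 2, 4, 6 and 8 were 5.33, 14.2, 3.56 and 2.16, and that of iPSC was 88.5. Both WT systems peaked on day 4 within the course, and WT-2 was back below its MEF level on day 8.

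Cdc20 was likewise high from day 1 in the depleted systems and lower late in the course. Cdc20 stood at 36.8 FPKM in the Mbd3f/- MEF library, days 1 to 8 held 167, 155, 149.8, 159, 147, 142, 107 and 80.5, and iPSC held 97.8, with ES at 179. Cdc20 in Gatad2a-/- began at 12.7 FPKM as MEF, passed through 57.5, 54.2, 70.6, 54.2, 65.0, 43.9, 33.0 and 46.5 over days 1 to 8, and ended as iPSC at 39.5. The day 7 and day 8 libraries thus lay below most earlier days in both systems. For WT-1 the Cdc20 MEF value was 22.9 FPKM, those of days 2, 4, 6 and 8 were 22.5, 74.2, 51.8 and 64.5, and that of iPSC was 167 (ES at 102). Cdc20 of the WT-2 MEF was at 2.62 FPKM, days 2, 4, 6 and 8 held 8.50, 17.8, 5.50 and 3.43, and iPSC held 113. In both WT systems day 4 was the highest library before iPSC.

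Cdk1, the kinase that commits the cell to mitosis, had the highest mean of the 32 over the course libraries. In the Gatad2a-/- mean Top2a, Ccnb1 and Birc5 were above it. Cdk1 stood at 125 FPKM in the Mbd3f/- MEF library, days 1 to 8 held 311, 292, 303, 231, 255, 251, 245 and 210.1, and iPSC held 232, with ES at 329. Cdk1 in Gatad2a-/- began at 53.03 FPKM as MEF, passed through 187, 134, 154, 147, 157, 138, 129.6 and 170.4 over days 1 to 8, and ended as iPSC at 182. Within the course of both systems day 1 was the highest library. For WT-1 the Cdk1 MEF value was 75.4 FPKM, those of days 2, 4, 6 and 8 were 81.6, 206, 145 and 168, and that of iPSC was 342 (ES at 291). Cdk1 of the WT-2 MEF was at 24.6 FPKM, days 2, 4, 6 and 8 held 43.9, 77.2, 27.3 and 19.8, and iPSC held 256. WT-1 stayed above its MEF level after day 4 and WT-2 did not on day 8.

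Birc5 and Top2a were highest in a pluripotent library in each of the 4 systems. Birc5 stood at 63.3 FPKM in the Mbd3f/- MEF library, days 1 to 8 held 174, 183, 211, 148, 159, 150.1, 152 and 154, and iPSC held 184, with ES at 320.4. Birc5 in Gatad2a-/- began at 56.2 FPKM as MEF, passed through 222, 153, 148, 195, 201, 199, 172 and 168 over days 1 to 8, and ended as iPSC at 238. Neither system dropped back to its MEF level on any day. For WT-1 the Birc5 MEF value was 43.8 FPKM, those of days 2, 4, 6 and 8 were 43.4, 113, 76.5 and 122, and that of iPSC was 348 (ES at 182). Birc5 of the WT-2 MEF was at 5.35 FPKM, days 2, 4, 6 and 8 held 13.5, 39.4, 9.69 and 4.85, and iPSC held 248. Birc5 was the only one of the 32 whose WT-1 maximum within the course fell on day 8.

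Top2a stood at 81.7 FPKM in the Mbd3f/- MEF library, days 1 to 8 held 137, 134, 153, 184, 185, 205, 216 and 207, and iPSC held 200.02, with ES at 419. Top2a in Gatad2a-/- began at 65.6 FPKM as MEF, passed through 176, 173, 216, 219.6, 337, 316, 239 and 301 over days 1 to 8, and ended as iPSC at 372. Its highest course library was day 7 in Mbd3f/- and day 5 in Gatad2a-/-. For WT-1 the Top2a MEF value was 49.1 FPKM, those of days 2, 4, 6 and 8 were 42.7, 140.3, 87.7 and 122, and that of iPSC was 370.2 (ES at 214). Top2a of the WT-2 MEF was at 3.72 FPKM, days 2, 4, 6 and 8 held 15.4, 44.6, 11.4 and 6.44, and iPSC held 258. Top2a remained above MEF on day 8 in all 4 systems.

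Cenpa, the histone variant that marks centromeres, Tpx2, the spindle factor that activates Aurka, and Prc1, the microtubule bundler of the central spindle, are given by their range over days 1 to 8 in the depleted systems. Cenpa stood at 62.2 FPKM in the Mbd3f/- MEF library, days 1 to 8 held 92.7 to 154, and iPSC held 98.7, with ES at 162. Cenpa in Gatad2a-/- began at 16.6 FPKM as MEF, ranged over 75.02 to 114 over days 1 to 8, and ended as iPSC at 77.8. In both depleted systems Cenpa stayed above MEF from day 1 onward. For WT-1 the Cenpa MEF value was 29.2 FPKM, those of days 2, 4, 6 and 8 were 25.4, 107, 79.3 and 97.4, and that of iPSC was 220.4 (ES at 144). Cenpa of the WT-2 MEF was at 5.30 FPKM, days 2, 4, 6 and 8 held 10.4, 23.8, 6.64 and 4.18, and iPSC held 174. In both WT systems the iPSC library was the highest.

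Tpx2 stood at 35.8 FPKM in the Mbd3f/- MEF library, days 1 to 8 held 60.3 to 79.7, and iPSC held 57.1, with ES at 91.9. Tpx2 in Gatad2a-/- began at 35.7 FPKM as MEF, ranged over 81.4 to 113 over days 1 to 8, and ended as iPSC at 95.3. MEF was the lowest library of both. For WT-1 the Tpx2 MEF value was 23.1 FPKM, those of days 2, 4, 6 and 8 were 20.7, 46.7, 30.6 and 28.3, and that of iPSC was 65.2 (ES at 68.2). Tpx2 of the WT-2 MEF was at 4.61 FPKM, days 2, 4, 6 and 8 held 8.73, 16.6, 4.36 and 2.69, and iPSC held 68.7. WT-2 lay under its MEF level on days 6 and 8.

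Prc1 stood at 34.2 FPKM in the Mbd3f/- MEF library, days 1 to 8 held 46.3 to 78.6, and iPSC held 55.9, with ES at 66.2. Prc1 in Gatad2a-/- began at 35.9 FPKM as MEF, ranged over 72.5 to 116 over days 1 to 8, and ended as iPSC at 84.4. In both depleted systems every later library was above MEF. For WT-1 the Prc1 MEF value was 24.8 FPKM, those of days 2, 4, 6 and 8 were 24.5, 45.1, 28.5 and 31.1, and that of iPSC was 55.7 (ES at 61.0). Prc1 of the WT-2 MEF was at 3.84 FPKM, days 2, 4, 6 and 8 held 10.0, 26.4, 6.11 and 3.38, and iPSC held 66.4. Day 4 was again the WT maximum before iPSC.

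Over all 32 genes the depleted courses formed a plateau. The median FPKM ratio of the Mbd3f/- libraries to MEF was 2.05, 2.15, 2.35, 1.93, 2.60, 2.68, 2.74 and 2.23 over days 1 to 8, with 2.38 for iPSC and 3.23 for ES. The Gatad2a-/- ratios were 3.49, 3.26, 3.59, 3.46, 4.46, 4.65, 3.77 and 3.68 over days 1 to 8, with 4.06 for iPSC. MEF was the lowest library of the Mbd3f/- course for 30 genes. The exceptions were Ccnb2, lowest on day 1, and Ndc80, lowest on day 4. Days 7, 6 and 3 of Mbd3f/- were the highest for 13, 9 and 5 genes.

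Within this plateau few steps passed the test. From days 3 to 4 to days 5 to 6, Kif2c, a microtubule-depolymerising kinesin, rose by 0.66 ± 0.16 (limma, adjusted p = 0.0347). This was 1 of 32 genes, a share close to the 2.92% of all genes called higher. From days 5 to 6 to days 7 to 8, Plk1, the polo-like kinase, fell by 0.59 ± 0.15 (adjusted p = 0.0366) and Cdc20 fell by 0.53 ± 0.15 (adjusted p = 0.0499), 2 of 32 genes with 3.34% of all genes called lower. Neither step was called without the Gatad2a-/- day 6 library, whose 20 highest genes held 92.2% of its FPKM. From days 7 to 8 to iPSC limma called 0 of the 32 genes, 0 of them at an unadjusted p under 0.05, with 1.09% of all genes called higher.

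The WT courses had a maximum on day 4 instead. In WT-1 the median ratio to MEF was 0.925, 2.65, 1.68 and 1.69 over days 2, 4, 6 and 8, with 4.58 for iPSC and 4.43 for ES. The WT-2 medians were 2.36, 6.26, 1.43 and 0.841 over the same days, with 26.5 for iPSC. Day 4 was the highest course library for 31 genes in WT-1 and for all 32 in WT-2. On day 2 of WT-1 29 genes were below MEF, and over all genes these 2 libraries correlated at 0.978. On day 8 Anln and Cenpe were below MEF in WT-1, and 25 genes were below MEF in WT-2. The 7 still above MEF in WT-2 were Cdc20, Kif20a, Mad2l1, Nusap1, Spc25, Top2a and Ttk.

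After day 4 WT-2 lay lower relative to its day 4 than WT-1 did. The FPKM ratio of day 8 to day 4 had a median of 0.129 in WT-2, with a range of 0.0739 for Aurkb to 0.390 for Mad2l1, and of 0.637 in WT-1, where Birc5 alone was higher at 1.08. The same ratio was 1.03 in Mbd3f/- and 1.15 in Gatad2a-/-. Contrasts with day 4 were chosen after these values were seen. From day 4 to day 8 limma called 0 of 32 genes in WT, 26 being lower at an unadjusted p under 0.05, with a median change of -1.44 and 0% of all genes called lower. On day 4 itself the WT median was 1.69 over MEF with 0 genes called, 31 at an unadjusted p under 0.05, and 0.00492% of all genes called higher. Without WT-1 the WT median was 2.05. The difference between the classes from day 4 to day 8 had a median of 1.62, with 0 of 32 genes called by limma, 15 at an unadjusted p under 0.05, and 3.22% of all genes called higher. The depleted systems had 12 genes called higher on day 4 than in MEF, with 13.1% of all genes called higher. That count was 0 without Mbd3f/-, 0 without Gatad2a-/-, 26 without WT-1 and 27 without WT-2. The difference between the classes on day 4 had a median of -0.33, with 0 genes called by limma, 0 at an unadjusted p under 0.05, and 1.12% of all genes called higher in the depleted class.

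**Figure D3:**
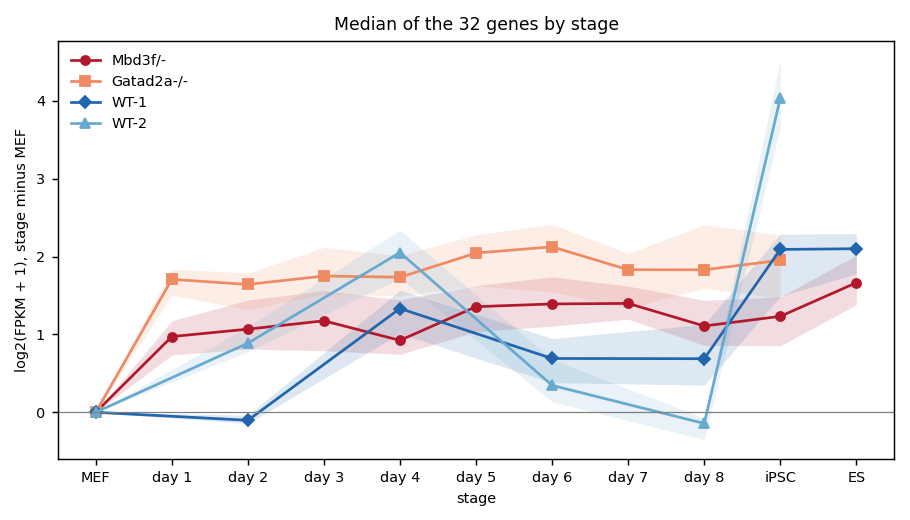
Median change of the 32 genes in log2(FPKM + 1) from the MEF library of the same system (vertical axis) at each stage (horizontal axis), 1 line per system, with bands from the lower to the upper quartile of the genes. The depleted lines stay near their day 1 level, the WT lines peak on day 4, and WT-2 lies just under 0 on day 8 before reaching 4.04 in iPSC.

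The study's design sets depleted against WT systems along the course, and day 8 is its last reprogramming day. In both depleted systems all 32 genes lay above MEF on day 8. Of these, 16 were called higher, and 19% of all genes were called higher (limma over 24 libraries of the shared stages). The median change was 1.502 against 0.23 over all genes. The microtubule factor Nusap1 rose by 2.25 ± 0.54 (SE, n = 2 systems, adjusted p = 0.006), Bub1 by 2.24 ± 0.49 (adjusted p = 0.00327) and Ect2, a cytokinesis gene, by 2.2 ± 0.55 (adjusted p = 0.00799). Nuf2 at 0.53 ± 0.49 (adjusted p = 0.418), Cenpe at 1.00 ± 0.47 (adjusted p = 0.115) and Ccna2, the S and G2 cyclin, at 1.05 ± 0.60 (adjusted p = 0.189) were the lowest. The others called were Ccnb1, Ccnb2, Bub1b, Mad2l1, Ttk, Aurka, Melk, Incenp, Cenpf, Spc25, Kif11, Kif2c and Top2a. Of the most abundant gene of each role, Aurka with 1.82 ± 0.59 and Top2a with 1.76 ± 0.63 were called, while Cdk1, Cdc20, Birc5, Cenpa, Tpx2 and Prc1 had changes of 1.12 to 1.75. The checkpoint genes had 4 of 5 called, the motors and microtubule factors 3 of 4, the kinetochore genes 2 of 6 and the cytokinesis genes 1 of 5. The count was 0 without Mbd3f/-, 0 without Gatad2a-/-, 29 without WT-1 and 30 without WT-2.

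In the WT systems limma called 0 of the 32 genes between day 8 and MEF, 1 of them at an unadjusted p under 0.05, with a median of 0.20 and 0.438% of all genes called higher. Changes ran from -0.70 ± 0.57 for Anln (adjusted p = 0.674) to 0.98 ± 0.63 for Top2a (adjusted p = 0.535). Fitted over days 4 to 8 together, all genes but Ndc80, Nuf2 and Kif23 were called higher in the depleted systems. They numbered 29, with 21.6% of all genes called higher. This count was 1 without Mbd3f/- and 0 without Gatad2a-/-. In WT limma called 0 over the same days, 10 at an unadjusted p under 0.05, with a median of 0.82 and 0.458% of all genes called higher. The median difference between the classes over days 4 to 8 was 0.68, with 0 genes called, 1 at an unadjusted p under 0.05, and 6.97% of all genes called higher.

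The test of the day 8 difference itself called a smaller share of the 32 genes than the 8.4% of all genes called higher in the depleted class. It called 1 of the 32. This gene was Bub1 (ENSMUSG00000027379, chr2:127801122-127831865, minus strand, GRCm38), the kinetochore kinase of the checkpoint. In Mbd3f/- Bub1 was 36.5 FPKM on day 8 against 10.98 in MEF, and in Gatad2a-/- 67.3 on day 8 against 8.65 in MEF. In WT-1 it was 8.76 on day 8 against 7.75 in MEF, and in WT-2 0.668 on day 8 against 1.09 in MEF. Bub1's day 8 change was 2.32 ± 0.69 larger in the depleted than in the WT systems (adjusted p = 0.0358), and the 2 pairs of systems did not overlap. This call was lost without Mbd3f/-, without Gatad2a-/- and without WT-2. With each system left out in turn, the Bub1 difference ranged from 1.73 to 2.91.

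For all 32 genes the fitted day 8 difference was above 0, with a median of 1.252 against 0.24 over all genes, and 10 genes had an unadjusted p under 0.05. Without WT-2 this median was 0.85, and without WT-1 it was 1.73. Next to Bub1 the largest were the spindle motor Kif11 at 2.10 ± 0.79 (adjusted p = 0.0885) and Ect2 at 1.99 ± 0.78 (adjusted p = 0.104). The smallest were Nuf2 at 0.33 ± 0.69 (adjusted p = 0.782), Spc25 at 0.37 ± 0.55 (adjusted p = 0.68) and Cdc20 at 0.58 ± 0.80 (adjusted p = 0.653). For 23 genes both depleted systems changed more than both WT systems, which was so for 32.7% of all genes. The 9 whose systems overlapped were Aurka, Aurkb, Birc5, Ccna2, Cdc20, Cdk1, Cenpa, Nuf2 and Spc25. Gatad2a-/- and its isogenic WT-2 differed in their day 8 change by a median of 1.98, from 1.00 for Spc25 to 3.61 for Aurkb, and on day 4 by -0.27. These are single libraries, with no test.

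**Figure D4:**
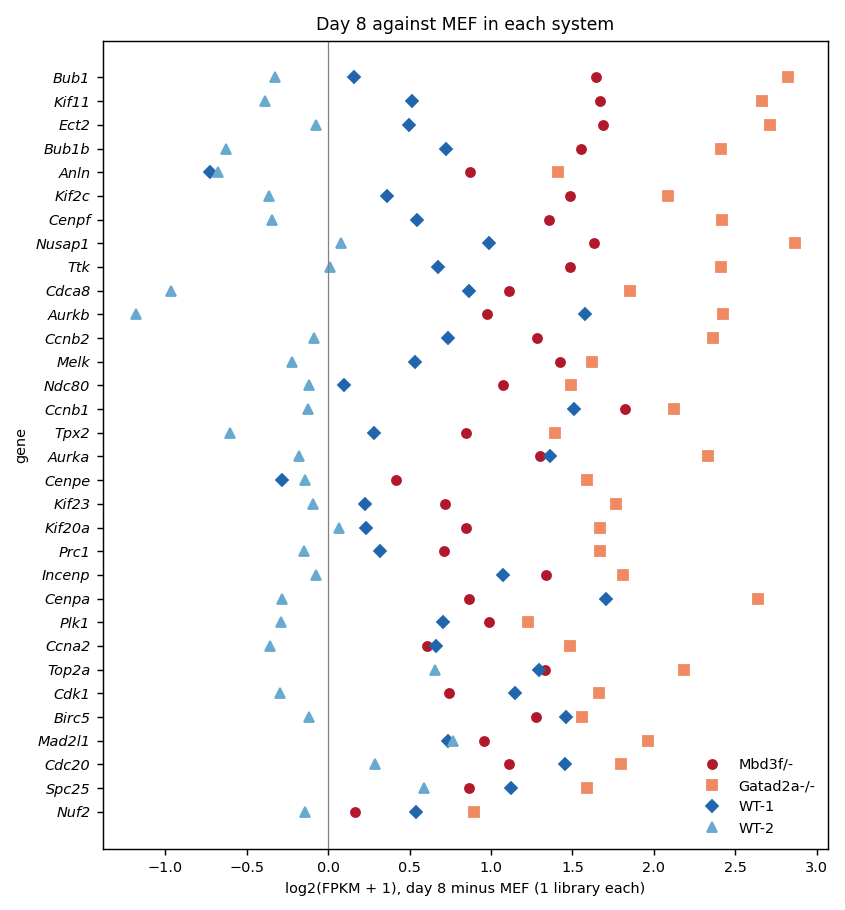
Change in log2(FPKM + 1) from MEF to day 8 of each gene (rows, ordered by the difference between classes) in each of the 4 systems, 1 library a stage. Depleted systems lie to the right of both WT systems in 23 of 32 rows, and WT-1 overlaps Mbd3f/- in rows such as Cdc20, Cdk1 and Nuf2.

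Markers of other cell states moved with these differences. On day 8 the 10 fibroblast markers had fallen by a median of 5.78 in the depleted systems, and the 10 pluripotency markers had risen by a median of 6.45. The WT medians were 0.62 for fibroblast and 0.79 for pluripotency markers. The 5 macrophage and blood markers tested had a median of -3.92 in the depleted systems, against -0.47 in WT. One of them, Tyrobp, was 0.0660 FPKM on day 8 of Mbd3f/-, against 168 in its MEF. Summed pluripotency markers reached 3650 FPKM in Mbd3f/- and 2352 in Gatad2a-/- by day 8, against at most 142.5 in WT-1 and 5.08 in WT-2. Of the cell cycle inhibitors, Cdkn1a and Cdkn2a had day 8 differences between depleted and WT of -1.92 (adjusted p = 0.0386) and -2.61 (adjusted p = 0.0201). The WT-2 MEF had 41.5 FPKM of Cdkn2a, days 2, 4, 6 and 8 had 65.8, 115, 206 and 207, and iPSC had 10.2. The part of these markers in the mitotic genes was not tested.

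Day 2 showed the earlier state. All 32 genes lay above MEF in both depleted systems by then, by a median FPKM ratio of 2.15 in Mbd3f/- and 3.26 in Gatad2a-/-. The fit of the shared stages, whose spread includes the WT systems, called 7 of them higher, with 9.97% of all genes called higher. These were Cdc20, Bub1b, Mad2l1, Ttk, Aurka, Melk and Incenp. Aurka rose by 2.16 ± 0.59 (adjusted p = 0.0245). The count was 0 without Mbd3f/-, 0 without Gatad2a-/- and 26 without either WT system. In WT limma called 0 genes, 0 at an unadjusted p under 0.05, and 0% of all genes. The difference between the classes called 0 genes, 1 at an unadjusted p under 0.05, with 0.557% of all genes called higher. Aurka had the largest fitted difference, at 1.802 ± 0.84 (adjusted p = 0.264).

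The step from day 8 to iPSC separated the classes most. In WT all 32 genes rose, by a median of 2.70, with 19.6% of all genes called higher. Birc5 rose by 3.46 ± 0.63 (SE, n = 2 systems, adjusted p = 0.001), Cdca8, the passenger subunit borealin, by 3.39 and Top2a by 3.36, and Cenpe rose least, by 1.82 ± 0.47 (adjusted p = 0.00901). In the depleted systems limma called 0 genes, 0 at an unadjusted p under 0.05, with a median of -0.00 and 0.246% of all genes called higher. Their changes ran from -0.58 ± 0.52 for Cenpf to 0.38 ± 0.63 for Birc5. The FPKM ratio of iPSC to day 8 had a median of 1.04 in Mbd3f/- and 0.908 in Gatad2a-/-, against 2.50 in WT-1 and 36.2 in WT-2.

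The difference of this step between the classes was called for 27 genes, all smaller in the depleted systems, where 7.9% of all genes were called lower. Its median was -2.81. Cenpf, a kinetochore and nuclear envelope protein, had -3.58 ± 0.74 (adjusted p = 0.00589), Cenpa -3.46 ± 0.98 (adjusted p = 0.0291) and Bub1 -3.37 ± 0.69 (adjusted p = 0.00553). Spc25 had the smallest, at -1.83 ± 0.55 (adjusted p = 0.0379), with Nuf2 at -1.85 and Cenpe at -1.90, neither called. Plk1, Aurkb and Anln were also not called. For all 32 genes both depleted systems lay below both WT systems, which was so for 30.7% of all genes. The count of 27 became 0 without Mbd3f/-, 0 without Gatad2a-/-, 32 without WT-1 and 0 without WT-2, when the median was -1.30. The WT count of 32 became 6 without WT-2, with a median of 1.28. In the same step the summed fibroblast markers went from 8375 to 239 FPKM in WT-1 and from 13932 to 239 in WT-2. Summed pluripotency markers went from 142.5 to 4767 FPKM in WT-1 and from 4.77 to 3400 in WT-2. The part of these markers in the mitotic genes was not tested.

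ES libraries exist for Mbd3f/- and WT-1. In the fit of all 4 systems, whose iPSC means also hold Gatad2a-/- and WT-2, limma called 0 of the 32 genes between ES and iPSC, 0 at an unadjusted p under 0.05, and 0% of all genes, with a median of -0.24. Within each of the 2 systems the median change was above 0, at 0.47 in Mbd3f/- and 0.05 in WT-1. In Mbd3f/- the FPKM ratio of ES to iPSC had a median of 1.39, with 28 genes higher in ES, from 0.715 for Plk1 to 2.10 for Top2a. In WT-1 it had a median of 1.04, with 19 genes higher in ES, from 0.523 for Birc5 to 3.37 for Anln. For 17 genes the sign was opposite and 15 were higher in ES in both. Over all genes the 2 differences correlated at -0.696, beside the cross-system resemblance given above.

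Other mitosis and cell cycle genes also moved between MEF and iPSC, where 29% of all genes were called higher and 23.9% lower. Of 31 further centromere and kinetochore genes 27 rose, with Spc24, a partner of Spc25, at 3.49 and Cenpm at 3.20. Of 30 further motors, centrosome and cytokinesis genes 28 rose, among them Kif22 at 2.81 and Kifc1 at 2.58. Of 17 condensin, cohesin and separase genes 15 rose and 1 fell, with the sororin gene Cdca5 at 3.37 and separase Espl1 at 2.65. The anaphase-promoting complex moved less, with 9 of 16 genes up and 2 down and a median of 0.51, although its E2 enzyme Ube2c rose by 3.07 and its inhibitor Fbxo5 by 2.93. All 35 genes of DNA replication and G1/S rose, with a median of 2.56. Of 14 CDK inhibitors and p53 targets 1 rose and 5 fell, with Cdkn2b at -4.22 and Cdkn1c at -2.88.

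In the day 8 difference between the classes the same lists gave lower counts. It was called higher in the depleted class for 5 of 31 kinetochore genes, 7 of 17 condensin and cohesin genes, 6 of 30 motors and cytokinesis genes and 3 of 35 replication genes, beside 8.4% of all genes, to which the replication share is close. The medians were 1.27, 1.70, 1.26 and 1.37, beside the 1.252 of the 32 genes. The condensin and cohesin genes thus had the highest median and the largest share called. The kinesin Kif24 had 3.58, the origin recognition subunit Orc1 2.59 and the helicase subunit Mcm6 2.39. Of the regulators, Mybl2, which encodes B-Myb, had 4.36 (adjusted p = 0.00508), while Foxm1 had 0.49 (adjusted p = 0.616) and the proliferation marker Mki67 0.50 (adjusted p = 0.681). Myc is also carried by the cassette. The Mbd3f/- MEF had 13.0 FPKM of Myc, days 1 to 8 had 9.48, 3.59, 0.495, 0.0919, 0.174, 0.311, 1.01 and 3.65, and iPSC had 7.53. The Gatad2a-/- MEF had 19.4, days 1 to 8 had 55.4, 54.5, 50.2, 44.4, 32.9, 15.7, 8.95 and 5.64, and iPSC had 3.78. For Myc the 2 depleted systems thus lay on opposite sides of their MEF level on days 1 to 5. Mycl, of the same family, was 14.5 FPKM on day 1 of Mbd3f/- against 2.41 in MEF. In Gatad2a-/- it was 11.9 against 1.26. Mycn was 48.0 on day 8 of Mbd3f/- against 2.22 in MEF, and 36.0 against 2.08 in Gatad2a-/-. Mycn on day 8 was 5.21 in WT-1 against 0.398 in MEF, and 0.129 against 0.0316 in WT-2. The WT-1 MEF had 17.2 FPKM of Myc, days 2, 4, 6 and 8 had 18.9, 129, 129.8 and 116, and iPSC had 20.6. The WT-2 MEF had 19.6 FPKM, the same days had 24.9, 6.15, 6.47 and 6.17, and iPSC had 7.31. Among the CDK inhibitors 5 of 14 were lower, beside 7.73% of all genes, with Cdkn2b at -4.70 and Cdkn1c at -3.56.

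Of all other genes, those most like the median profile of the 32 over the 34 course libraries, centred within each table, were Ncapg with a Pearson correlation of 0.989, Kif22 with 0.987, Gm5593 with 0.975, Ncapd2 with 0.972, and Hmmr and Ska3 with 0.971. Nek2 and Spag5 followed with 0.970, and Cdca2 and Cdca3 with 0.968. The 32 themselves had 0.809 for Anln to 0.985 for Tpx2, with 30 above 0.9, and the median over 21164 genes was 0.113. The libraries of a system share their table, and the profile was built from the 32, so these values are descriptive.

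The Myc libraries vary Myc in Mbd3f/- cells. Each condition has 1 library, apart from the 2 si-Scramble MEF, so differences are given as values without a test. The 2 control MEF differed by a median of 0.03 on the log2 scale, from -0.82 for Mad2l1 to 0.39 for Ect2. Myc itself followed some labels and went against others. Myc was 3.16 FPKM in the library labelled OSK plus cMyc and 0.510 in that labelled cMyc, against 24.8 in that labelled OSK. It was 29.2 in the library labelled siMyc day 3 and 29.4 with the inhibitor, against 30.5 and 26.5 in the control MEF, and 10.99 in siMyc day 7 against 16.2 in si-Scramble day 7. Mycn, a gene of the same family, was 1.87 FPKM in siMyc day 3, against 5.11 and 4.43 in the control MEF. On day 7 it was 0.927 in siMyc, against 1.47 in si-Scramble. Mycl, the lMyc gene, went the other way, with 3.93 FPKM in siMyc day 3, against 1.65 and 1.29 in the control MEF. On day 7 Mycl was 3.31 in siMyc, against 1.03 in si-Scramble. Sox2, part of OSK, was 312 FPKM in the library labelled OSK plus cMyc and 0.821 in that labelled cMyc, against 39.6 in that labelled OSK. The other OSK genes were lower in OSK plus cMyc than in OSK. Pou5f1, the Oct4 gene, was 2.69 in OSK plus cMyc and 0 in cMyc, against 36.1 in OSK. Klf4 was 16.1 in OSK plus cMyc and 16.6 in cMyc, against 22.6 in OSK.

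On day 4, 31 of the 32 genes were lower in the library labelled OSK plus cMyc than in that labelled OSK, with a median difference of -0.79 against -0.07 over all genes. Of these, 9 passed a difference of 1, where 15.7% of all genes were lower by as much. Cdk1 was 216 FPKM in OSK plus cMyc, against 347 in OSK, and Top2a 61.9 in OSK plus cMyc, against 228 in OSK. Ccnb2 was 24.0 in OSK plus cMyc, against 86.7 in OSK, and Nuf2 13.3 in OSK plus cMyc, against 43.2 in OSK. Plk1 alone was higher, at 45.4 in OSK plus cMyc, against 41.3 in OSK. Other lists moved in the same comparison: 6 of 7 RNAs listed as signs of RNA processing (nuclear and poorly polyadenylated RNAs such as Malat1 and Rmrp) were higher, with a median of 2.53, and keratinocyte markers had a median of 1.497. Their part in the mitotic levels was not tested. Cdkn1a, the CDK inhibitor p21, was 531 in OSK plus cMyc, against 170 in OSK. Against the library labelled cMyc, OSK plus cMyc was lower for 29 genes, with a median difference of -0.58 and 0 past 1, where 3.98% of all genes were lower by as much.

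On day 7, 29 genes were lower in the library labelled siMyc than in si-Scramble, with a median difference of -0.43. The difference passed 1 for 2 genes, Plk1 with 2.01 FPKM in siMyc, against 5.57 in si-Scramble, and Cenpa with 2.45 in siMyc, against 6.16 in si-Scramble, while 4.17% of all genes were lower by as much. Spc25, Cdc20 and Cdca8 were higher in siMyc, by 0.33, 0.30 and 0.05. Of the 10 fibroblast markers 8 were lower in siMyc, with a median of -1.06, and their part was not tested. The Cdc20 level was 9.44 in siMyc and 7.50 in si-Scramble.

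The day 7 libraries were low with or without siMyc. In si-Scramble day 7 all 32 genes were below the control MEF mean, with a median difference of -2.18 and 31 past 1, where 5.43% of all genes were lower by as much. Cdk1 was 44.8 FPKM in si-Scramble day 7, against 149 and 140.5 in the control MEF, Aurka 5.38, against 20.6 and 20.9, and Top2a 9.07, against 45.8 and 51.9. Both control MEF lay far above the day 7 library for each of these genes. Ccnb2 differed most, with -3.01, followed by Kif23 with -2.74 and Cenpf with -2.71, and Incenp least, with -0.96. In siMyc day 7 Cdk1 was 25.6, Aurka 4.23 and Top2a 5.42, and the median difference from the MEF mean was -2.59. Cdkn1a was 694 in siMyc day 7 and 748 in si-Scramble day 7, against 274 and 281 in the control MEF. All 7 RNA processing signs were higher in si-Scramble day 7 than in the MEF mean, with a median of 0.97. Keratinocyte markers had a median of 1.34, with Krt14 at 161 FPKM, against 5.13 and 5.79 in the control MEF. The part of these in the low mitotic levels was not tested. All 35 replication genes were also lower in si-Scramble day 7 than in MEF, with a median of -0.64.

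On day 3 the siMyc and inhibitor libraries have no control of the same day, so the control MEF stand beside them at another stage. In the library labelled siMyc day 3, 29 genes were below the MEF mean, by a median difference of -0.43 against -0.14 over all genes. Those past 1 were Nusap1, at 7.41 FPKM in siMyc, against a MEF mean of 20.1, and Bub1b with -1.15, while 8.35% of all genes were lower by as much. With the inhibitor 30 genes were lower, by a median difference of -0.90, and 12 passed 1, where 10.3% of all genes were lower by as much. Ndc80, the outer kinetochore subunit, was 1.72 with the inhibitor, against a MEF mean of 12.1, Melk 2.61, against 8.75, and Cdk1 53.4, against 145. Cenpf and Tpx2 were higher with the inhibitor, by 0.35 each. DNA replication genes were lower with the inhibitor in 34 of 35 cases, with a median of -1.04.

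**Figure D5:**
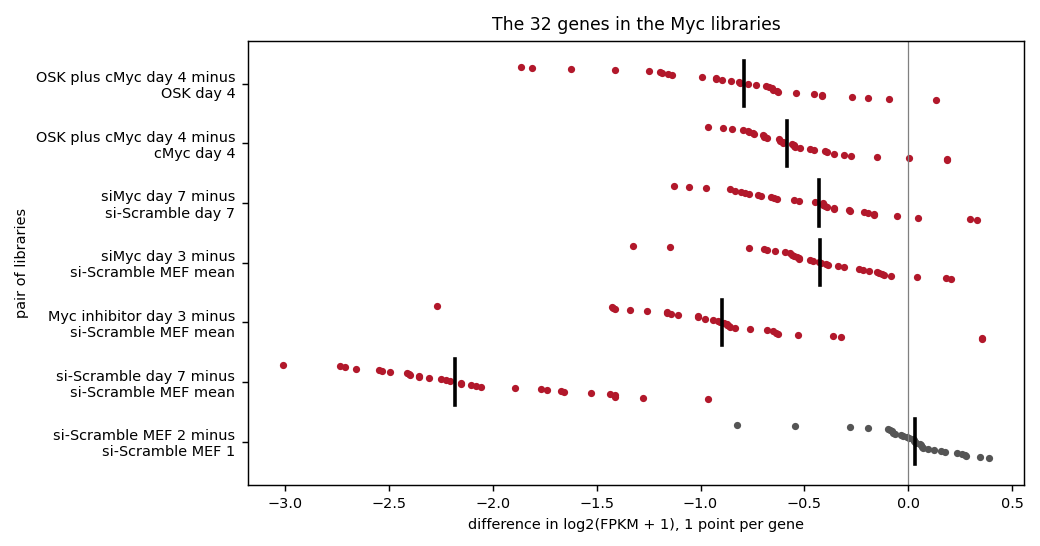
Difference in log2(FPKM + 1) of each of the 32 genes (points) between the libraries named at the left, with the median as a black bar and the 2 control MEF libraries in grey at the bottom. The si-Scramble day 7 library lies farthest below MEF, with a median of -2.18, and the siMyc day 7 points straddle smaller differences around -0.43.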

How the data were processed

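Per the labels' protocols, polyadenylated RNA was prepared with a TruSeq RNA v2 kit, which does not mark strand, so overlapping antisense genes cannot be told apart. Per the submitters' processing notes, CASAVA 1.8.2, TopHat2 2.0.10 and Cufflinks 2.2.1 were used with mm10. The authors deposited FPKM per gene in 5 tables, and no read depth. The 22 gene identifiers listed more than once had their rows summed.

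Genes with at least 1 FPKM in at least 2 of the fitted libraries were tested with limma 3.58.1 (R 4.3.3) on log2(FPKM + 1), with class-by-stage means, system as a block, eBayes with trend and robust, and Benjamini-Hochberg adjustment over all genes tested, at 0.05. The shared stages (24 libraries, 20305 genes), the depleted courses (20 libraries, 20198 genes) and the fit with ES (26 libraries, 20410 genes) were separate fits. A fold change on log2(FPKM + 1) understates changes of low genes. Named with values are the 3 largest and 3 smallest changes of each comparison, members whose call differs from the majority, and the most abundant gene of each role. Members and lists were chosen with earlier results of these data known. The list symbols Cenpu, Adgre1, Sgol2a, Gins2 and Cdt1 are not analysed here.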

Additional observations from a re-analysis of the deposited data

Results flagged for a closer look

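Between depleted and WT systems 2 comparisons held genes called by a test of the difference itself (limma, adjusted p under 0.05). The day 8 change from MEF differed for 1 of the 32 genes, Bub1, which was higher in the depleted class. This is a smaller share than the 8.4% of all genes called in that direction. The change between day 8 and iPSC differed for 27 of the 32 genes, all lower in the depleted class, with 7.9% of all genes called in that direction. Day 8 is part of both comparisons, so they are not independent.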

How the results depend on the processing

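Leaving out each system in turn gave these ranges of genes called and of the median log2 change of the 32 genes. They were 26 to 32 calls and 1.85 to 2.87 for iPSC against MEF. For day 8 against MEF they were 0 to 30 and 1.11 to 1.83 in depleted, 0 and -0.14 to 0.69 in WT, and 0 to 15 and 0.81 to 1.73 for the difference. For day 2 they were 0 to 26 and 1.07 to 1.64 in depleted, -0.10 to 0.89 in WT, and 0.45 to 1.498 for the difference. For days 4 to 8 they were 0 to 32 and 1.21 to 1.96 in depleted, 0 to 1 and 0.73 to 0.90 in WT, and 0 to 3 and 0.36 to 1.18 for the difference. For iPSC against day 8 they were -0.14 to 0.05 in depleted, 6 to 32 and 1.28 to 4.37 in WT, and 0 to 32 and -4.45 to -1.30 for the difference. For day 4 against MEF they were 0 to 27 and 0.92 to 1.73 in depleted, 0 to 8 and 1.33 to 2.05 in WT, and -0.64 to 0.09 for the difference. For day 8 against day 4 they were 0.05 to 0.20 in depleted, 0 to 12 and -2.30 to -0.60 in WT, and 0 to 4 and 0.66 to 2.37 for the difference. ES against iPSC had -0.82 to 0.41. In the depleted courses no residual degrees of freedom were left, and the medians were 0.97 to 1.71 on day 1, 1.04 to 1.71 on days 1 to 3, 0.18 to 0.35 for days 5 to 6, -0.23 to -0.10 for days 7 to 8 and -0.07 to 0.05 for iPSC. In the day 8 difference Cdc20 ranged from -0.0012 without WT-2 to 1.16 without WT-1, and Nuf2 from -0.037 without Gatad2a-/- to 0.70 without Mbd3f/-, with -0.0089 without WT-2. A class left with 1 system is assumed to vary like the other. The share of all genes called is not given for these fits, so no share stands beside their counts.

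Other settings moved these counts of calls. A pseudocount of 0.1 gave 0 for the day 8 difference, 4 and 7 for days 2 and 4 in depleted, and 2 for days 5 to 6. No filter on low values gave 0 for the day 8 difference, 4 for day 2 and 19 for days 4 to 8 in depleted, 14 for the difference of iPSC and day 8, and 0 for days 5 to 6 and for days 7 to 8. Quantile normalization gave 0 for days 5 to 6 and 1 for days 7 to 8. Without the system block, day 8, day 2 and day 4 in depleted and both differences gave 0, days 4 to 8 in depleted 4, iPSC against day 8 in WT 7, day 1 9, days 1 to 3 20, and days 5 to 6 and 7 to 8 0. Plain eBayes gave 1 for days 7 to 8. With MEF, day 8 and iPSC alone, day 8 in depleted gave 5 and both differences 0. Without the Gatad2a-/- day 6 library, added after the data were seen, days 5 to 6 and days 7 to 8 gave 0. The causes were not tested. Of 157 medians none moved beyond the spread under these settings, except in the Myc libraries with a pseudocount of 0.1, where siMyc day 7 against MEF had -3.07, si-Scramble day 7 against MEF -2.53, and siMyc day 7 against siMyc day 3 -2.56. In windows of 100 bases before to 50 after the start CHR letters stood in 70.4% of the windows against 9.87% of all genes, both motifs in 59.3% against 2.40%, and TATAAA in 0% against 8.08%. No paired analysis was possible because the libraries carry no shared replicate numbers, apart from the system block of the fits, which sets the stages of each system against each other. Depth is unknown, so limits of detection are not given.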
